A study of Mus musculus with 4 samples.

Results

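The junction genes of the intercalated disc were followed in mRNA-seq data of the mouse heart. They are the 10 genes Gja1, Gja5, Dsp, Pkp2, Jup, Dsg2, Dsc2, Cdh2, Tjp1 and Ctnna3, chosen by their symbols and for their place in the disc, out of 23238 gene symbols in the data. All 10 were found, each with 1 value per library, and all 10 passed the read minimum in every comparison. The hearts came from male CDF1 mice labelled as postnatal day 28, in groups of 10 mice, with 1 library per group. The paper gives this age, in weeks, for the purchase of the mice. They were killed at the end of the experiment, so the hearts were older than labelled. The normal control E(−)T(−) had neither exercise nor tumor, and the normal exercise group E(+)T(−) ran on a treadmill at high intensity. The cancer control E(−)T(+) received CT26 cells, a mouse colorectal carcinoma line, by the tail vein, and the cancer exercise group E(+)T(+) had both. For the heart, it is not given in the sources used here whether a library holds 1 heart or a pool, nor which chambers were taken. With 1 library per group, no difference has a replicate check and no p-value is given.

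The intercalated disc is the end-to-end contact between heart muscle cells. Gap junctions, which are built from connexins, pass current from cell to cell. Desmosomes tie the contact to desmin filaments through desmosomal cadherins, plakoglobin, plakophilin and desmoplakin, and adherens junctions tie it to actin through N-cadherin and catenins. Mutations of desmosome genes are known for arrhythmogenic cardiomyopathy.

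Gja1 (connexin 43), the main connexin of the working ventricle, lies on chromosome 10 at 56377330 to 56402513 of the mouse genome build GRCm38, on the forward strand. Gja5 (connexin 40), a connexin of the atria, the conduction system and arterial endothelium, lies on chromosome 3 at 96904693 to 97077416. Jup (plakoglobin) lies on chromosome 11 at 100368958 to 100397763 and Tjp1 (ZO-1) on chromosome 7 at 65296165 to 65527781, both on the reverse strand. Of the others whose positions are given here, Dsp lies on chromosome 13 at 38151294 to 38198577, Pkp2 on chromosome 16 at 16213318 to 16272712 and Ctnna3 on chromosome 10 at 63430098 to 65003667. Exons of Gja5, Dsp and Dsg2 overlap the opposite-strand genes Gpr89, Gm10129 and Gm16090, whose reads cannot be told apart if strand was not used in counting. The promoters of these 4 genes are shown because they are the connexin pair and the pair of Jup and Tjp1, whose levels were lower in both libraries with tumor. Each is 300 bases of RefSeq sequence in build GRCm38.p6, read 5′ to 3′ on the strand of the gene, from 250 bases before the transcription start to 50 after it. They lie at chr10:56377050-56377349 for Gja1, chr3:97032152-97032451 for Gja5, chr11:100397741-100398040 for Jup and chr7:65371195-65371494 for Tjp1. For Gja5 and Tjp1, the RefSeq start used lies inside the gene span given above, away from its 5′ end. Capitals mark matches on either strand to 5 motifs. These were the GC box, written GGGCGG, the AP-1 motif, written TGANTCA, the GATA motif, written AGATAA, the T-box motif, written GGTGTG, and the Nkx2-5 motif, written TNAAGTG.
Gja1: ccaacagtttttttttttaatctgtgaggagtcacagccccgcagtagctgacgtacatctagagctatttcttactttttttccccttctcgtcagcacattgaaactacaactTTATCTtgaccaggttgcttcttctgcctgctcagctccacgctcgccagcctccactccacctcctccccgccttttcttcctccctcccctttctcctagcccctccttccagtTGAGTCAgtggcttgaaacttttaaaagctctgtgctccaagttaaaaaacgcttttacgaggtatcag
Gja5: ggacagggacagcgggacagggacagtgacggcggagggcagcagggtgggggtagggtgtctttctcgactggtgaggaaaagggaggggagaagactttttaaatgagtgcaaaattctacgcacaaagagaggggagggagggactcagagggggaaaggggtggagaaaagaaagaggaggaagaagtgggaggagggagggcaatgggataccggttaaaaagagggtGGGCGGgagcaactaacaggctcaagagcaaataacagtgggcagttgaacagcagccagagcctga
Jup: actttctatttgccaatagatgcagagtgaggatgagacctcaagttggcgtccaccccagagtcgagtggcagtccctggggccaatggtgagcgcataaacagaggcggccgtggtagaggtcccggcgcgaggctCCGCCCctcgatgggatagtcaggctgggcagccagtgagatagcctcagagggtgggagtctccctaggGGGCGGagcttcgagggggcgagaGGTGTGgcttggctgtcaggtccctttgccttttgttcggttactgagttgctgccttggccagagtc
Tjp1: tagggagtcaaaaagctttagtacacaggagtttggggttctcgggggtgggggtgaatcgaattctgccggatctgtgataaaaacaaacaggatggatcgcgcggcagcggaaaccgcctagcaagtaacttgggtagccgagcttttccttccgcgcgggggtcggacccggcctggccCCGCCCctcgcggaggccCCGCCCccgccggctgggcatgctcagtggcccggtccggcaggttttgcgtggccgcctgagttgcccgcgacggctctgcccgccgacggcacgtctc

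The Gja1 promoter held 1 AP-1 match, at 19 bases before the start, and 1 GATA match on the reverse strand, and it had no GC box. The Gja5 promoter held 1 GC box and none of the other motifs. The Jup promoter held 2 GC boxes and 1 T-box match, and the Tjp1 promoter held 2 GC boxes. Of 32851 mouse promoters of this length, 35.7% held the GC box, 7.81% the AP-1 motif, 11.2% the GATA motif, 19.0% the T-box motif and 11.5% the Nkx2-5 motif. The base composition differed between them, with 47.7% G and C in Gja1, 55.7% in Gja5, 60.7% in Jup and 65.3% in Tjp1. A match describes letters only and is not a bound site.

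Libraries were made from the 3′ ends of mRNA, and each transcript gives about 1 read at any length, which lets levels be compared between genes. The values are log2(normalized read count + 1), and whole reads were recovered from them, with totals from 6595429 to 11545921 reads. Globin reads made up 37.3% of the cancer exercise library and 7.86% to 8.76% of the remaining libraries. A gene was called changed when its levels differed by 2-fold or more and 1 of the 2 libraries held a normalized read count of 4 or above. Intervals are 95% Clopper-Pearson intervals for the ratio of reads, and they cover counting error only. All 10 cardiomyocyte markers had reads in every library, with a summed normalized read count of 449600 to 500457, as known for heart muscle. In these bulk samples, fewer cells of a type and less RNA per cell cannot be told apart.

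The junction genes covered a wide range of depth. Dsp was read most, with 4846 to 7798 reads per library, followed by Gja1 and Cdh2. Gja5 was read least, with 2 to 11 reads. Over the 4 libraries, the log2 level of Pkp2 spanned 0.16 and that of Dsp 0.38, whereas Jup spanned 1.0, Gja1 0.98, Dsg2 1.21 and Tjp1 1.23. In RPM, the reads scaled to library size, Dsp ran from 420 to 855, Pkp2 from 45 to 77.8 and Dsg2 from 31.1 to 65.9. Gja1 ran from 90.5 to 294 RPM, Jup from 35.1 to 117 and Tjp1 from 8.92 to 33.7. As a ratio, the range of the linkers Dsp and Pkp2 in RPM was thus narrower than that of Gja1, Jup and Tjp1. That of Dsp was close to that of Dsg2. Scaling by a trimmed mean of log ratios moved 0 of 40 changes of single junction genes outside their counting intervals. The fitted library sizes of the deposited values were within 0.115% of those of this scaling. It could therefore move little and is no independent check.

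**Figure D1:**
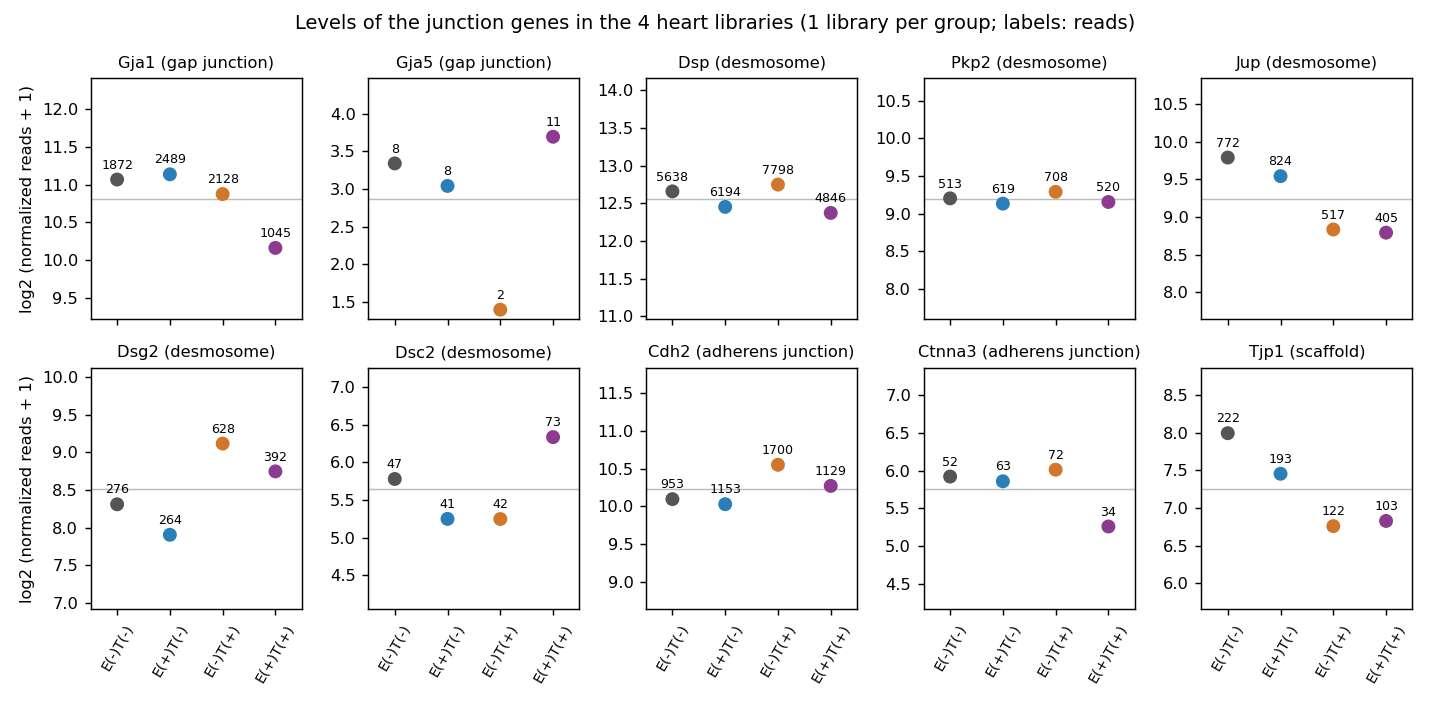
Log2(normalized read count + 1) of the 10 junction genes (y axis, the same span of 3.2 in every panel) in the 4 heart libraries (x axis), with the number of reads above each point and the mean of the 4 values as a grey line. Gja1 was lowest in the cancer exercise library at 1045 reads, and Jup and Tjp1 were lower in both libraries with tumor. Dsg2 was higher in both on this scale. In RPM, Dsg2 was at 34.0 in the cancer exercise library, where globin made up 37.3% of reads, against 41.8 in the normal control.

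Among the gap junction genes, Gja1 was at a log2 level of 11.07 on 1872 reads in the normal control, 11.14 on 2489 reads in the normal exercise library, 10.88 on 2128 reads in the cancer control and 10.16 on 1045 reads in the cancer exercise library. The library with both exercise and tumor stood below the other 3. The log2 fold change of Gja1 was −0.71 (95% interval −0.82 to −0.61) for cancer exercise against cancer control and −0.98 (−1.08 to −0.87) for cancer exercise against normal exercise, both short of 2-fold. Scaling to library size, which moved the median of all genes to −0.60 and −0.74 in these comparisons, gave −1.30 and −1.70 for Gja1. The globin reads of the cancer exercise library move with this scaling. With genes over 1% of a library, Hba-a1 and Hbb-bs among them, left out of the total, Gja1 was at −1.15 in cancer exercise against normal exercise. The median of all genes was then −0.18. The part of globin reads in the level of Gja1 was not tested. The change with tumor in the absence of exercise was −0.19 (−0.28 to −0.10). Gja1 in the normal exercise library and the normal control differed by 0.069 (−0.018 to 0.16), which is within counting error.

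Gja5 was at a log2 level of 3.34 on 8 reads in the normal control, 3.04 on 8 reads in the normal exercise library, 1.40 on 2 reads in the cancer control and 3.69 on 11 reads in the cancer exercise library. The cancer control was the lowest, but at this depth no 2 neighbours in the order of the levels differed beyond counting error. The log2 fold change was −1.94 (95% interval −5.65 to −0.053) in cancer control against normal control and 2.30 (0.57 to 5.98) in cancer exercise against cancer control. Both were past 2-fold, and a read minimum of 16 removed both calls. The list of 6 atrial and conduction markers had a summed normalized read count of 14776 in the normal control, 18666 in the normal exercise library, 8867 in the cancer control and 28877 in the cancer exercise library. In cancer exercise against cancer control, all 4 atrial markers above the read minimum were past 2-fold, namely Nppa at 1.43, Myl7 at 1.72, Myl4 at 2.32 and Sln at 3.03. In normal exercise against normal control, where Gja5 was at −0.30 (−1.95 to 1.27), Myl7 at 1.2 and Sln at 1.35 were called higher and Bmp10 lower. In cancer control against normal control, Nppa was at −0.87, Myl4 at −0.36, Myl7 at −0.12 and Sln at 0.27, none of them past 2-fold. Hcn4 and Bmp10, of the pacemaker tissue and the right atrium, had 0 to 6 reads. The part of atrial tissue in the change of Gja5 was not tested.

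In the desmosome, Dsp (desmoplakin), which anchors desmin filaments, was at a log2 level of 12.66 on 5638 reads in the normal control, 12.45 on 6194 reads in the normal exercise library, 12.75 on 7798 reads in the cancer control and 12.37 on 4846 reads in the cancer exercise library. Its 4 levels differed from each neighbour in the order beyond counting error, although the largest difference was small. In cancer exercise against cancer control, its log2 fold change was −0.38 (−0.43 to −0.32). Pkp2 (plakophilin 2), a plaque protein next to desmoplakin, was at 9.20 on 513 reads in the normal control, 9.13 on 619 reads in the normal exercise library, 9.29 on 708 reads in the cancer control and 9.15 on 520 reads in the cancer exercise library. No neighbours in this order differed beyond counting error. The intervals of its 4 changes lay between −0.30 and 0.25. For cancer control against normal control, the changes of 0.090 for Dsp and 0.087 for Pkp2 turned to −0.064 and −0.067 under library size scaling, so that no direction is given for them.

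Jup (plakoglobin), a catenin shared by desmosomes and adherens junctions, was at 9.79 on 772 reads in the normal control, 9.54 on 824 reads in the normal exercise library, 8.84 on 517 reads in the cancer control and 8.79 on 405 reads in the cancer exercise library. Both libraries with tumor lay below both without. The log2 fold change with tumor was −0.96 (95% interval −1.12 to −0.79) without exercise and −0.75 (−0.93 to −0.58) with exercise. The first of these stood just short of 2-fold and passed it at −1.11 when libraries were scaled to their size, a scaling that set the median gene at −0.17. The second was −1.47 under that scaling, which set the median gene at −0.74 in its comparison. Exercise in cancer-bearing mice gave −0.042 (−0.23 to 0.15), within counting error.

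Dsg2 (desmoglein 2), the main desmoglein of heart muscle cells, went the other way. It was at 8.31 on 276 reads in the normal control, 7.91 on 264 reads in the normal exercise library, 9.12 on 628 reads in the cancer control and 8.75 on 392 reads in the cancer exercise library. Both libraries with tumor lay above both without on this scale. In RPM, the cancer exercise library, of which 37.3% were globin reads, was at 34.0, below the normal control at 41.8. With tumor, the log2 fold change was 0.81 (95% interval 0.60 to 1.02) without exercise and 0.84 (0.62 to 1.07) with exercise. Under library size scaling these were 0.65 and 0.12, with the median gene at −0.17 and −0.74. With exercise it was −0.41 without tumor (−0.65 to −0.16) and −0.37 with tumor (−0.56 to −0.19), and none of these reached 2-fold. The change of −0.37 was −0.95 under library size scaling, with the median gene at −0.60.

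Dsc2 (desmocollin 2), the partner cadherin of Dsg2, was at 5.78 on 47 reads in the normal control, 5.25 on 41 reads in the normal exercise library, 5.25 on 42 reads in the cancer control and 6.33 on 73 reads in the cancer exercise library. The cancer exercise library was the highest on this scale, and in RPM it lay below the normal control, at 6.32 against 7.13. On the deposited scale it stood above the normal control by 0.56 (95% interval 0.019 to 1.13), and the 3 lower libraries did not differ from their neighbours beyond counting error. The comparisons of cancer exercise with cancer control and with normal exercise both gave a log2 fold change of 1.09 (0.54 to 1.69), past 2-fold. Library size scaling brought these to 0.51 and 0.38, below 2-fold, and shifted all genes as given for Gja1. Epithelial cells also carry desmosomes. The list of 10 epithelial and mesothelial markers had a summed normalized read count of 266 in the normal control, 189 in the normal exercise library, 357 in the cancer control and 533 in the cancer exercise library, and in cancer exercise against cancer control 2 of its 8 genes above the read minimum were called higher and 2 lower. The lung epithelial gene Sftpc alone went from 76.6 to 319 normalized reads between these libraries, a larger increase than that of the whole sum. Krt5 had at most 1 read in any library. The part of such cells in the change of Dsc2 was not tested.

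Of the adherens junction genes, Cdh2 (N-cadherin), the classical cadherin of the heart muscle cell, was at 10.10 on 953 reads in the normal control, 10.03 on 1153 reads in the normal exercise library, 10.55 on 1700 reads in the cancer control and 10.27 on 1129 reads in the cancer exercise library. The cancer control was the highest. The log2 fold change with tumor was 0.46 (95% interval 0.34 to 0.57) without exercise and 0.24 (0.12 to 0.36) with exercise, and that of exercise in cancer-bearing mice was −0.28 (−0.39 to −0.17). The value of 0.24 turned to −0.48 under library size scaling, with the median gene at −0.74. Fibroblasts express Cdh2 as well, and the 6 fibroblast markers summed to 24258 normalized reads in the normal control, 28117 in the normal exercise library, 50756 in the cancer control and 31686 in the cancer exercise library. Dcn made up most of each sum, at 20400, 22500, 40500 and 29400. With tumor without exercise, 5 of the 6 had values above 0 and 3 were called higher. With exercise in cancer-bearing mice, 5 had values below 0 and 3 were called lower. With tumor in exercised mice, 4 of the 6 had values below 0 and 2 were called lower. Col1a1 was at −2.03 and Col1a2 at −1.69 there, and Dcn at 0.39. The part of fibroblasts in the level of Cdh2 was not tested.

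Ctnna3 (αT-catenin), a catenin of the heart that links cadherins to actin and also binds plakophilin 2, was at 5.92 on 52 reads in the normal control, 5.86 on 63 reads in the normal exercise library, 6.01 on 72 reads in the cancer control and 5.26 on 34 reads in the cancer exercise library. Like Gja1, it was lowest in the cancer exercise library. Its neighbours in the order of the levels did not differ beyond counting error. For cancer exercise against cancer control the log2 fold change was −0.75 (95% interval −1.41 to −0.16), and for cancer exercise against normal exercise it was −0.60 (−1.26 to 0.008). Library size scaling put both past 2-fold, at −1.33 and −1.30, with the median gene at −0.60 and −0.74.

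Tjp1 (ZO-1), a scaffold at the edge of gap junctions that binds connexin 43, was at 7.995 on 222 reads in the normal control, 7.46 on 193 reads in the normal exercise library, 6.76 on 122 reads in the cancer control and 6.83 on 103 reads in the cancer exercise library. As for Jup, both libraries with tumor lay below both without. The log2 fold change with tumor was −1.23 (95% interval −1.57 to −0.92) without exercise, past 2-fold, and −0.63 (−0.99 to −0.28) with exercise. With exercise it was −0.54 (−0.83 to −0.26) in normal mice. The value of 0.069 for exercise in cancer-bearing mice lay within counting error. Under library size scaling it turned to −0.52, and the change with tumor in exercised mice passed 2-fold, at −1.34. The median gene then stood at −0.60 and −0.74 in these comparisons. Jup and Tjp1 are also made by endothelial cells. The 8 endothelial markers had a summed normalized read count of 7832 in the normal control, 6090 in the normal exercise library, 6840 in the cancer control and 8443 in the cancer exercise library. With tumor in the absence of exercise, 3 of the 8 were called lower, Kdr at −1.89, Tek at −1.41 and Cdh5 at −1.26, and none higher, while 4 of the 8 had values above 0, among them Egfl7 at 0.78 and Pecam1 at 0.55. With exercise in normal mice, 7 of the 8 had values below 0, with a median of −0.41, and 0 were called. With tumor in exercised mice, in which Jup and Tjp1 were also lower, 2 were called higher and none lower. Egfl7 was at 1.21 and Cldn5 at 1.67 there. Of the 8, 4 had values below 0 in this comparison, among them Kdr at −0.82 and Tie1 at −0.5. The part of endothelial cells in the levels of Jup and Tjp1 was not tested.

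**Figure D2:**
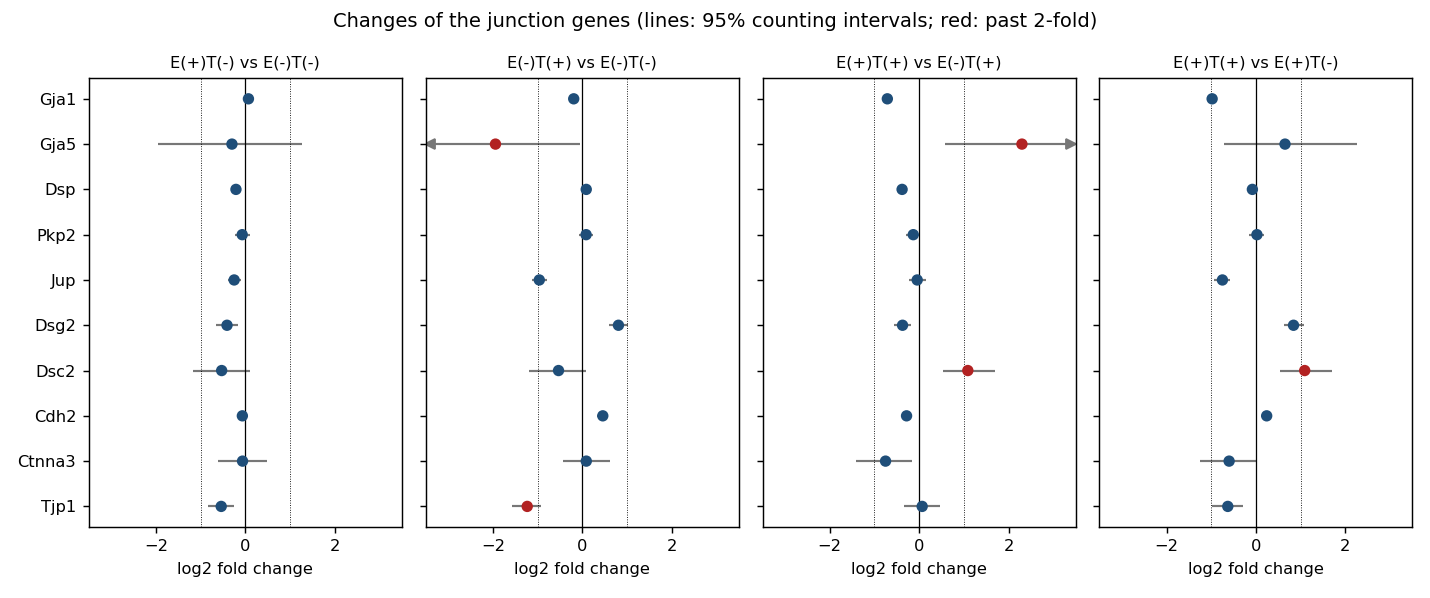
Log2 fold changes (x axis) of the 10 junction genes (y axis) in 4 comparisons of 2 libraries each, with 95% counting intervals as lines, arrowheads where an interval leaves the axis, dotted lines at 2-fold and called changes in red. Red points are Gja5 and Tjp1 for cancer control against normal control, Gja5 and Dsc2 for cancer exercise against cancer control, and Dsc2 for cancer exercise against normal exercise.

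Exercise in normal mice called 0 of the 10 junction genes, against 12.3% of 13937 genes, and 9 of the 10 were lower, with a median log2 fold change of −0.23 against 0.002 over all genes. In 4 of these, namely Dsp, Jup, Dsg2 and Tjp1, the interval excluded 0. Tumor without exercise called 2 of the 10, both lower, against 27.6% of 14317 genes. Here 5 were higher and 5 lower, with a median of −0.053 against −0.011 over all genes. Exercise in cancer-bearing mice called 2 of the 10, both higher, against 19.4% of 14363 genes, while 7 of the 10 were lower and the median was −0.21 against −0.012. Tumor in exercised mice called 1 of the 10, against 23.0% of 14289 genes, with a median of −0.029 against −0.009. In each comparison the number of called junction genes was near or below the share of all genes. Library size scaling gave −0.96 for Dsp, −0.72 for Pkp2, −0.63 for Jup and −0.87 for Cdh2 with exercise in cancer-bearing mice, beside the median of −0.60 over all genes. The comparisons share libraries and are not independent of each other.

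Ratios of reads within 1 library do not depend on the scaling between libraries. The following pairs were chosen after their values were seen. There were 2.80 Jup reads per Dsg2 read (95% interval 2.43 to 3.22) in the normal control and 3.12 (2.71 to 3.6) in the normal exercise library, whereas the ratio was 0.823 (0.731 to 0.926) in the cancer control and 1.03 (0.897 to 1.19) in the cancer exercise library. The intervals of the libraries with tumor do not overlap those of the libraries without. Jup took 10.7% of the reads of the 5 desmosome genes in the normal control, 10.4% in the normal exercise library, 5.33% in the cancer control and 6.49% in the cancer exercise library. Over the same libraries, the share of Dsg2 was 3.81%, 3.32%, 6.48% and 6.29%. Dsp kept 77.7% to 80.4% of these reads, and Dsc2 reached 1.17% (0.919% to 1.47%) in the cancer exercise library against 0.433% (0.312% to 0.585%) in the cancer control.

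Between the junction types, there were 1.96 Gja1 reads per Cdh2 read (95% interval 1.82 to 2.13) in the normal control and 2.16 (2.01 to 2.32) in the normal exercise library. The ratio was 1.25 (1.17 to 1.33) in the cancer control and 0.926 (0.850 to 1.01) in the cancer exercise library. The ratio was lower in both libraries with tumor, and lowest in the one with exercise, by more than counting error. Tjp1 reads per Cdh2 read were 0.233 (0.200 to 0.270) in the normal control, 0.167 (0.143 to 0.195) in the normal exercise library, 0.0718 (0.0592 to 0.0863) in the cancer control and 0.0912 (0.0738 to 0.112) in the cancer exercise library.

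**Figure D3:**
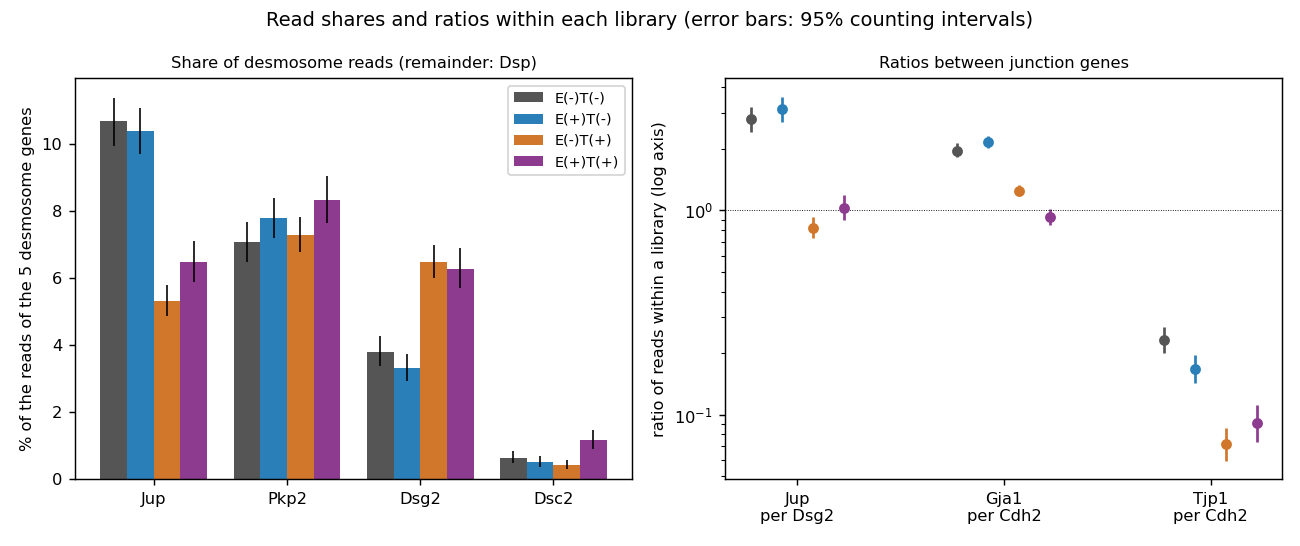
Left, share in percent of the reads of the 5 desmosome genes taken by Jup, Pkp2, Dsg2 and Dsc2 in each library, Dsp taking the remainder. Right, ratios of reads between pairs of junction genes on a log axis, both with 95% counting intervals, where Jup per Dsg2 was 2.80 and 3.12 in the libraries without tumor and 0.823 and 1.03 in those with tumor.

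The wider intercalated disc was described by a list of 77 other genes in 7 roles. Exercise in normal mice called 1 of 68 above the read minimum, which is 1.47%, beside 12.3% of all genes, and tumor without exercise called 10 of 68, which is 14.7%, beside 27.6% of all genes. Of these 10, 5 were higher and 5 lower, with a median of −0.037 over the list. Xirp1 (Xin), an actin-binding disc protein, was higher by 2.10 (95% interval 1.90 to 2.32) on 1216 reads against 217. Cav3, the caveolin of muscle, was higher by 1.49 (1.35 to 1.64). The inward rectifier channel gene Kcnj2 was at −2.69 (−3.47 to −2.07) on 22 reads against 113, and the potassium channel gene Kcna5 at −1.74 (−2.34 to −1.21). The others that were called were Des at 1.14, Arvcf at 1.23, Flnc at 1.04, Afdn at −1.05, Ank2 at −1.02 and Evpl on 1 read against 10, which were named after their values were seen.

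In cancer exercise against cancer control, 3 of 67 genes of the list were called, which is 4.48%, beside 19.4% of all genes. They were Kcnj2 at 1.72 (95% interval 1.03 to 2.53), Flnc at −1.15 (−1.34 to −0.96) and Xirp1 at −1.03 (−1.18 to −0.87). This comparison and that of tumor without exercise share the cancer control library. In cancer exercise against normal exercise, 3 of 67 were called, again 4.48%, beside 23.0% of all genes. They were Cldn5 at 1.67, Kcna5 at −1.62 and Ctnnd1 at −1.32. Evpl was called in normal exercise against normal control, on 0 reads against 10. Of 7 other connexin and pannexin genes, 4 passed the read minimum and 0 were called in any comparison. Gjc1 (connexin 45), named for its role in the conduction system, had 211 to 308 reads, and the intervals of its 4 changes all included 0. Ctnnb1 (β-catenin), the close relative of Jup and named after its values were seen, was at −0.69 (−0.76 to −0.62) with tumor without exercise and −0.52 (−0.59 to −0.45) with tumor in exercised mice.

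**Figure D4:**
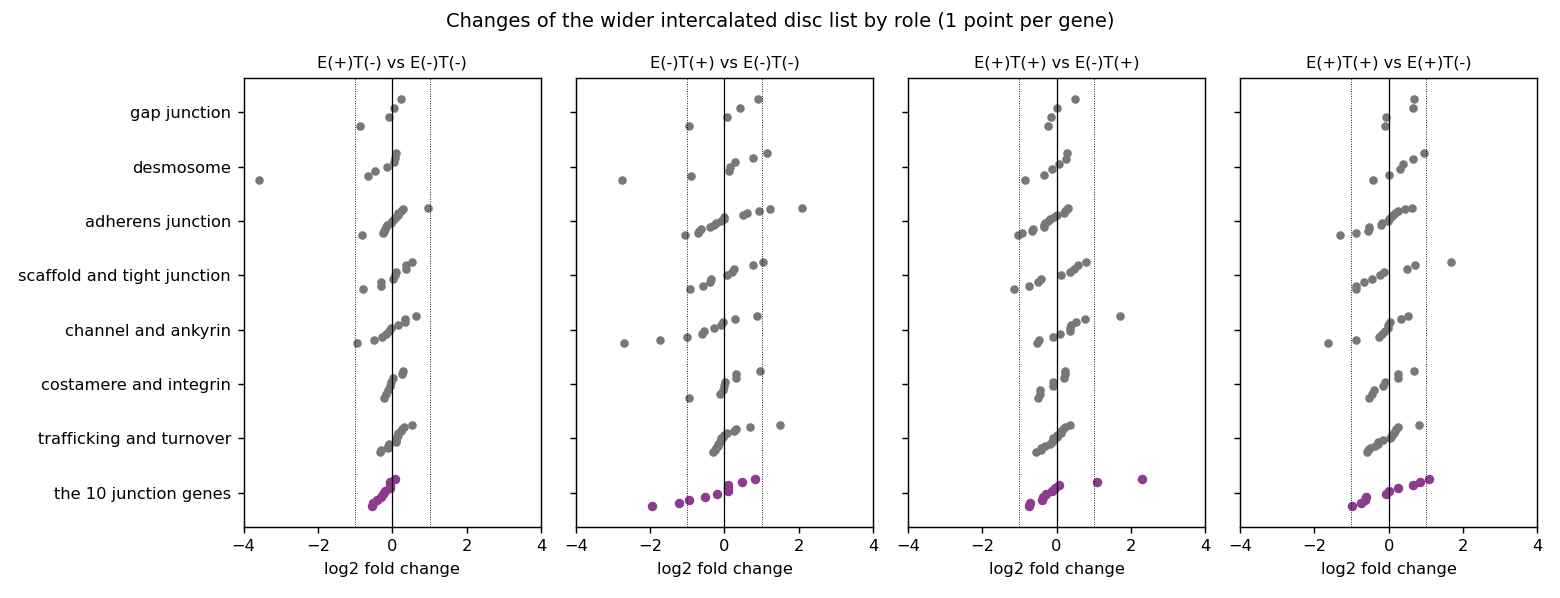
Log2 fold changes (x axis) of the 77 genes of the wider intercalated disc list that passed the read minimum, by role (y axis, grey points, 1 per gene), and of the 10 junction genes (purple), in the 4 comparisons, with dotted lines at 2-fold. In cancer control against normal control, the grey points past the dotted lines are 5 on each side.

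Markers of other cell types differed between the libraries. Erythroid markers summed to 508529 to 526656 normalized reads in 3 libraries and 3593420 in the cancer exercise library, and all 7 were called higher in both comparisons of that library. The 7 leukocyte markers summed to 710 normalized reads in the normal control, 899 in the normal exercise library, 4363 in the cancer control and 5912 in the cancer exercise library. Between the last pair, S100a8 at 1.06 was called higher, Cd68 at −1.65 and Lyz2 at −1.56 were called lower, and 4 of the 6 genes above the read minimum had values below 0. The 4 adipocyte markers summed to 1754, 440, 422 and 2418 in the same order, and the 6 smooth muscle and pericyte markers ranged from 4224 to 7118. Over the 10 cardiomyocyte markers, the median log2 fold change was 0.007 with exercise in normal mice, 0.060 with tumor without exercise, 0.21 with exercise in cancer-bearing mice and 0.21 with tumor in exercised mice, and 0 of the 10 were called in any of the 4. Relative to these medians, Gja1 was at −1.18 in cancer exercise against normal exercise and Jup at −1.02 in cancer control against normal control, both then past 2-fold, while Dsc2 was at 0.88 in both of its comparisons.

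The median pattern of the 10 junction genes was shallow, at 0.14, 0.017, 0.080 and −0.11 around the mean of each gene for the normal control, the normal exercise library, the cancer control and the cancer exercise library. Pkp2 and Dsp lay nearest to it, at root mean square distances of 0.0865 and 0.0925 on the log2 scale, and Gja5 farthest, at 0.924. Among 6967 further genes averaging 100 normalized reads or more, Nfe2l1, Chn1, Scamp1, 1110038F14Rik and Gtf2a1 were nearest, at distances of 0.0368 to 0.0408 over 4 libraries. With 4 libraries, this likeness is a description only.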

How the data were processed

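Heart mRNA-seq data of 4 groups were analysed, with 1 library per group. The authors made QuantSeq 3′ libraries, aligned reads with Bowtie2, counted them with Bedtools, per the labels on mm10, and normalized the counts by a quantile method of edgeR. What the authors deposited is on the log2 scale, as log2(normalized read count + 1). Strand use in the counting is not given in the sources used here, and exons of Gja5, Dsp and Dsg2 overlap an opposite-strand gene. The authors' quantile adjustment was written out in R and inverted. With fitted library sizes, a pseudocount of 1 and a fitted dispersion of 0.149, whole reads gave the deposited values back, with a largest difference of 0.000531. Of 25460 values from 5 to 99 reads, 100% lay within 0.1 of a whole read. On simulated reads of 16842 genes, 97.7% of read numbers were recovered exactly, and in the simulated exercise comparison 200 of 200 genes changed by 4-fold were called, as were 520 of 13897 unchanged genes. The changed genes were picked among deeper ones, and the simulated reads varied by counting error only. These calls therefore do not speak for shallow genes such as Gja5 or for differences between animals. A called change is a description of 2 libraries. Intervals cover counting error only, since 1 library per group leaves no spread between replicates. PCR copies are not independent molecules, so the intervals can be too narrow. On duplicate symbols the value with the highest mean was used. The members and lists (wider disc and 9 marker lists, from general knowledge) were chosen with earlier results of these data known. Named genes are all members, up to 4 called genes of the wider list per comparison with the largest change and a mean of at least 16, and the 5 nearest patterns. Promoter sequences came from RefSeq and gene positions from GENCODE M21 (GRCm38, the assembly of mm10). Promoters of 6 of the 10 genes were found, and the remainder are not shown. Alternatives covered scaling, pseudocount, read minimum, fold threshold and duplicate symbols, and a reference to cardiomyocyte markers was added after seeing the data. Software was R 4.3.3 and Python 3.11.15 with pandas 2.3.3, matplotlib 3.10.9, scipy 1.17.1 and numpy 2.4.6.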

Additional observations from a re-analysis of the deposited data

Results flagged for a closer look

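Without and with tumor, exercise gave changes of opposite sign for 4 of the 10 junction genes, and with 1 library per group this difference was not tested. The share of all genes with opposite signs was not counted, so the 4 cannot be read as particular to the junction genes. Over all genes, 50.3% were higher with exercise without tumor and 49.1% with exercise in cancer-bearing mice. Gja1 was at a log2 fold change of 0.069 without tumor (95% interval −0.018 to 0.16), and at −0.71 with tumor (−0.82 to −0.61). For Gja5 the values were −0.30 (−1.95 to 1.27) and 2.30 (0.57 to 5.98), and for Dsc2 they were −0.53 (−1.18 to 0.10) and 1.09 (0.54 to 1.69). Tjp1 was at −0.54 (−0.83 to −0.26) and 0.069 (−0.33 to 0.46). The second value of Tjp1 was −0.52 under library size scaling, −0.00072 without genes over 1% and −0.14 relative to cardiomyocyte markers, which leaves 3 genes of opposite sign. In each of the 4 genes, 1 of the 2 intervals included 0.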

How the results depend on the processing

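No paired analysis was possible because each group has 1 library. The numbers of called junction genes were 0, 2, 2 and 1 in comparisons A to D. A is normal exercise against normal control, B is cancer control against normal control, C is cancer exercise against cancer control and D is cancer exercise against normal exercise. A read minimum of 16 gave 1 for B and 1 for C, through Gja5, beside 22.7% and 13.5% of all genes. A threshold of 1.5-fold gave 4, 4 and 7 for B, C and D, beside 47.7%, 37.0% and 42.4% of all genes. Library size scaling gave 4 for D, beside 40.9% of all genes. The reference to cardiomyocyte markers, added after seeing the data, gave 1 for C, beside 3023 of 14363 genes. The median of the junction genes moved to −0.79 and −0.75 under library size scaling in C and D, with all genes at −0.60 and −0.74, and to −0.42 and −0.24 relative to cardiomyocyte markers. For the wider list, called genes numbered 1, 10, 3 and 3. They were 2, 16 and 20 under library size scaling in A, C and D. Over all genes, that scaling called 2017 of 14364 in A, 29.4% in C and 40.9% in D. With a read minimum of 16, the list had 0 in A, beside 6.59% of all genes. With no minimum it had 2, 5 and 7 in A, C and D, beside 16.3%, 23.3% and 26.1% of all genes. A 1.5-fold threshold gave 8, 26, 10 and 17 of 68, 68, 67 and 67 above the read minimum, beside 24.8%, 47.7%, 37.0% and 42.4% of all genes. With genes over 1% of a library left out of the total, D was 7, beside 24.7% of all genes. Relative to cardiomyocyte markers C was 5, beside 3023 of 14363 genes, and D was 7, beside 25.3% of all genes. Medians of this list moved from −0.086 and −0.028 to −0.67 and −0.75 under library size scaling and to −0.30 and −0.24 relative to cardiomyocyte markers. Scaling by a trimmed mean of log ratios, pseudocounts of 4 and 0.25 and summed duplicate symbols turned no sign among the 40 changes of single junction genes and moved none across 2-fold. The first of these could move little, since the fitted library sizes were within 0.115% of the trimmed mean sizes. Library size scaling turned 6 signs and moved 9 across 2-fold. Without genes over 1% these numbers were 5 and 3, and relative to cardiomyocyte markers 2 and 4. Gene counts past 2-fold among all genes were 1711, 3955, 2790 and 3289. Library size scaling called 535 higher and 3604 lower in C, in place of 1349 and 1441, and 796 higher and 4997 lower in D, in place of 1709 and 1580. With no minimum A was 2798, and with a minimum of 16 A was 782, C was 1628 and D was 2102. A 1.5-fold threshold gave 3456, 6824, 5316 and 6065, and library size scaling gave 5793 in D. Depth limits Gja5 most, followed by Ctnna3 and Dsc2.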
